A study of Mus musculus with 2 samples.

Results

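The cells described here are lymphatic endothelial cells (LECs) of mouse lymph nodes that carry transcripts of the sinus floor, chiefly Bmp2, Madcam1 and Coch. They were chosen from the counts of the cells themselves, so the levels that chose them are a description and no test was made on them. A cell was a member if it had at least 2 UMIs of Prox1, the transcription factor that fixes lymphatic identity, at most 1 UMI of the lymphocyte genes Cd79a and Cd3e together, and a summed count of Madcam1, Coch, Ccl20 and Bmp2 of at least 3 that was also greater than its count of Ackr4. A UMI, or unique molecular identifier, stands for 1 captured transcript. The rule found 133 of the 8091 cells kept, with 16 in the KO-labelled library and 117 in the WT library. All other Prox1-positive cells, 188 in the KO-labelled library and 510 in the WT library, are called other LECs.

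The subcapsular sinus is the space under the capsule of a lymph node that first receives lymph. Its outer wall, the ceiling, is formed by LECs that express the atypical chemokine receptor Ackr4, and its inner wall, the floor, by LECs that touch the lymphoid tissue and its macrophages. Floor LECs are known for the adhesion molecule Madcam1, the chemokine Ccl20 and the macrophage growth factor Csf1, and lymphotoxin and RANK signals from lymphoid cells are known to maintain them.

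The data came from inguinal nodes draining a tumour, pooled from 9 nodes of mice with Atg5 deleted in LECs (ATG5 KO) and from 13 nodes of WT mice, with 1 single-cell library for each genotype. Atg5 encodes a protein needed to form autophagosomes. The Cre line, the tumour, and the strain, sex and age of the mice are not given in the sources used here. Endothelial cells gated as CD31+ and CD45- were mixed with CD45+ immune cells before capture, so shares are given among Prox1-positive cells only. Each genotype is 1 pool, so no p-value or standard error can be given, and all intervals (95%) cover counting error only. The ATG5 KO library is called KO-labelled, because transcripts counted near their 3' end do not check the deletion.

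The libraries held 23089918 UMIs in 111135 barcodes for the KO-labelled pool and 23649554 UMIs in 119938 barcodes for the WT pool, and the cell filter left 4198 and 3893 cells. They shared 14 cell barcodes, and none of these was Prox1-positive. Floor LECs had a median of 10200 UMIs in the KO-labelled library and 8967 UMIs in the WT library, against 7824 and 8854 UMIs in the other LECs of the same libraries. Mitochondrially encoded genes took 7.69% of the UMIs of KO-labelled floor LECs and 10.7% of those of KO-labelled other LECs, and 6.11% and 7.27% in the WT floor and other LECs. Cells with Y-linked transcripts and cells with Xist were present in each library, and they are called male and female cells below.

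The 4 genes of the rule were not carried together by every member. Bmp2, which encodes a bone morphogenetic protein (gene at chr2:133552159-133562885, GRCm38), had a UMI in 12 of the 16 KO-labelled floor LECs, with a median of 3 and a highest count of 31 UMIs, and in 115 of the 117 WT floor LECs, with a median of 16 and a highest count of 100 UMIs. Madcam1 (chr10:79664559-79668537), the vascular ligand of the gut-homing integrin of lymphocytes, had a UMI in 12 KO-labelled and 85 WT floor LECs, with medians of 2.5 and 2 UMIs. Coch (chr12:51593341-51605771), which encodes the secreted matrix protein cochlin, had a UMI in 3 KO-labelled floor LECs, 1 of which held 226 of their 234 UMIs, and in 74 WT floor LECs, with a highest count of 236 UMIs. Ccl20 (chr1:83116766-83119167), the ligand of the chemokine receptor CCR6, was the most uneven: 2 KO-labelled floor LECs held all of its 148 UMIs, and 10 WT floor LECs held 76.7% of its 818 UMIs. In the KO-labelled library 6 members had 1 of the 4 genes, 7 had 2, 3 had 3 and none had all 4, and 3 were members through Bmp2 alone. In the WT library 18 had 1, 31 had 2, 40 had 3 and 28 had all 4, and 17 were members through Bmp2 alone.

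Among the other LECs the same genes were nearly absent, as the rule requires. In the KO-labelled library Madcam1 had 52 UMIs in floor LECs and 6 in other LECs, Coch 234 and 0, Ccl20 148 and 0, and Bmp2 113 and 25. In the WT library Madcam1 had 363 UMIs in floor LECs and 6 in other LECs, Coch 2006 and 3, Ccl20 818 and 0, and Bmp2 2585 and 73. In the 1356 WT B cells, which should lack these genes and had a median of 2762.5 UMIs, Madcam1 had no UMI, Ccl20 had 4, and Coch, Bmp2 and Postn had 1 each.

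Madcam1 and Ccl20 are known marks of floor LECs, and their promoters are shown because they held matches to the NF-kappaB consensus, the element through which lymphotoxin and RANK signals are known to act on transcription. The sequences are those of RefSeq (GRCm38.p6, plus strand), from 250 bases before to 50 bases after the gene's start, with matches in capitals.
Madcam1, chr10:79664309-79664608: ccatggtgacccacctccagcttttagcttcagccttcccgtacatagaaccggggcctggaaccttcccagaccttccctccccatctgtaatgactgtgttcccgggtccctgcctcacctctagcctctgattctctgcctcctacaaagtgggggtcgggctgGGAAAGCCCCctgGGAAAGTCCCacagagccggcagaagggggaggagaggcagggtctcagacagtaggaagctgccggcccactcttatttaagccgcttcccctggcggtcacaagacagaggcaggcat
Ccl20, chr1:83116516-83116815: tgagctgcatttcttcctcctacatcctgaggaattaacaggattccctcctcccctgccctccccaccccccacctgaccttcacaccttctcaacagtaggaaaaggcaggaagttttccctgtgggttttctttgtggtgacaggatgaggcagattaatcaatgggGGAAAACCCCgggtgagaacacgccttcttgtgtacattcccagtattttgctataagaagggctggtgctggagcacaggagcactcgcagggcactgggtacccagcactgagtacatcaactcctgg
The Madcam1 promoter held 2 matches, 83 and 70 bases before the start, and the Ccl20 promoter held 1 match, 80 bases before the start. On both strands, 8.46% of 32851 RefSeq mouse promoters of this length held a match. Of 24 genes that could be looked up among the rule's genes and the 25 highest genes named below, 5 held a match in at least 1 promoter: Ccl20, Gm10851, Madcam1, Mme and Spib. Mme held it in 1 of 3 promoters. This count is by gene and the share above is by promoter, so they are not directly comparable. A match is a description of the letters and says nothing about binding in these cells.

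**Figure D1:**
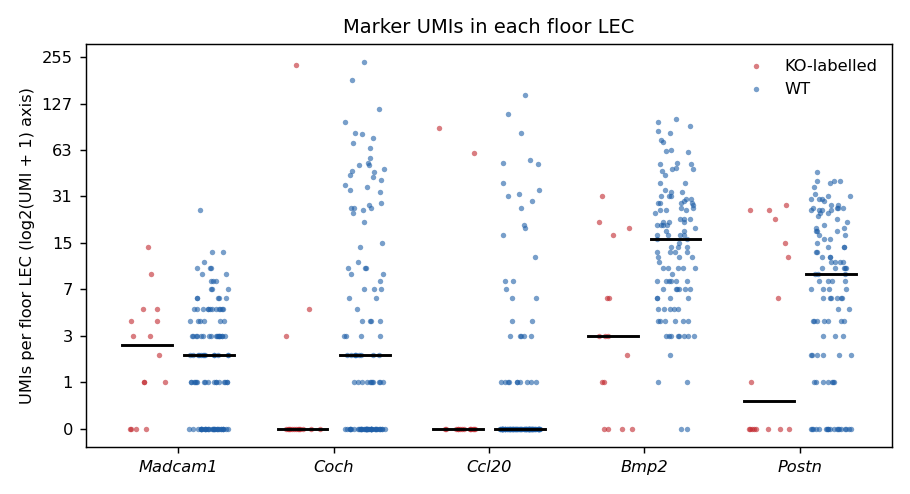
UMIs of 5 floor markers in each floor LEC (log2(UMI + 1) axis; KO-labelled in red, 16 cells; WT in blue, 117 cells; bars are medians). Bmp2 had a median of 3 UMIs in KO-labelled floor LECs and 16 in WT ones, while Coch and Ccl20 reached over 100 UMIs in single cells and were at 0 in others.

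Postn, which encodes the matrix protein periostin and was not used by the rule, was also higher in floor than in other LECs. It was named as a floor marker with earlier results of these data known, so its level is a description. Postn had 133 UMIs in KO-labelled floor LECs and 11 in KO-labelled other LECs, and 1401 UMIs in WT floor LECs and 187 in WT other LECs. A UMI of Postn was found in 50% of the KO-labelled and 83.8% of the WT floor LECs, against 3.19% and 6.67% of the other LECs. All 8 KO-labelled members with a summed rule count of at least 5 had it, and none of the 8 with a count of 3 or 4 did. Relative abundance is given in CPM, the UMIs of a gene scaled by the non-mitochondrial UMIs of the class. That of Postn was 103-fold higher in floor than in other LECs of the KO-labelled library (55.5-211) and 32.7-fold higher in the WT library (28.1-38.3).

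Floor LECs were 7.84% of the Prox1-positive cells in the KO-labelled library (16 of 204; exact interval 4.55-12.4) and 18.7% in the WT library (117 of 627; 15.7-21.9). Among male cells the shares were 8.79% (8 of 91) in the KO-labelled library and 17.2% (64 of 372) in the WT library, and among female cells 8.54% (7 of 82) and 20.1% (32 of 159). With cells of at most 10% mitochondrial UMIs the shares were 15.4% in the KO-labelled and 21.7% in the WT library, so the gap between the libraries moves with this filter. Ackr4-positive ceiling LECs were 19.6% of the KO-labelled and 55.7% of the WT Prox1-positive cells, and cells with Mrc1, Marco or Ptx3, marks of medullary and paracortical LECs, were 25% and 5.10%. The genotype, the pool and the preparation cannot be told apart in these shares.

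**Figure D2:**
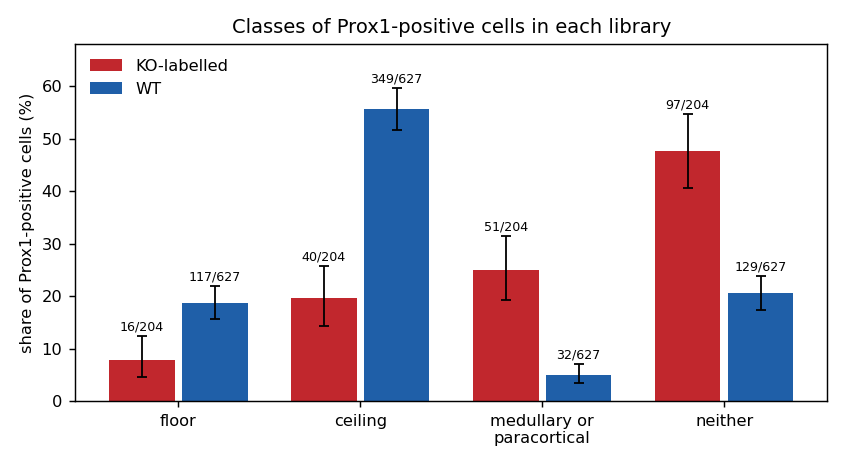
Share of Prox1-positive cells in each class (%, with exact 95% intervals; KO-labelled left and red, WT right and blue; cells of all Prox1-positive cells above each bar). Floor LECs were 16 of 204 in the KO-labelled and 117 of 627 in the WT library.

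The members differed in how far they carried the rest of the floor programme. For this, each cell was scored by how many of 25 genes named below, all outside the rule and chosen as the highest in WT floor LECs, had at least 1 UMI. The 8 KO-labelled members with a summed rule count of 3 or 4 had 0 to 3 of the 25 genes (median 1), although their median depth was 12946 UMIs. The 8 with a rule count of at least 5 had 9 to 19 of them. In the WT library the 9 members with a rule count of 3 or 4 had 3 to 14 (median 12), and the 96 with a count of at least 10 had 6 to 24 (median 15). Other WT LECs with a rule count of 0 had 0 to 4 (median 0). By these genes 8 of the 16 KO-labelled members were like other LECs of their library with a rule count of 0, which also had 0 to 4 (median 0), and KO-labelled values are given below for the members with a rule count of at least 5, a choice made after this was seen. Those 8 cells were 3.92% of the KO-labelled Prox1-positive cells (1.71-7.58), against 17.2% in the WT library (108 of 627, 14.3-20.4). The 188 KO-labelled other LECs held 40 ceiling and 51 medullary or paracortical cells, and the 510 WT other LECs held 349 and 32. Ratios of floor over other LECs in the 2 libraries therefore rest on unlike comparison cells.

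Just outside the rule, 5 KO-labelled and 7 WT Prox1-positive cells had a rule count of 2, and 1 KO-labelled and 8 WT cells were left out by their Ackr4 count. Those 8 WT cells had 0 to 6 of the 25 genes (median 1.5). A further 6 WT cells had a Prox1 count of 1 but otherwise met the rule, and they had 11 to 18 of the 25 genes (median 13.5).

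**Figure D3:**
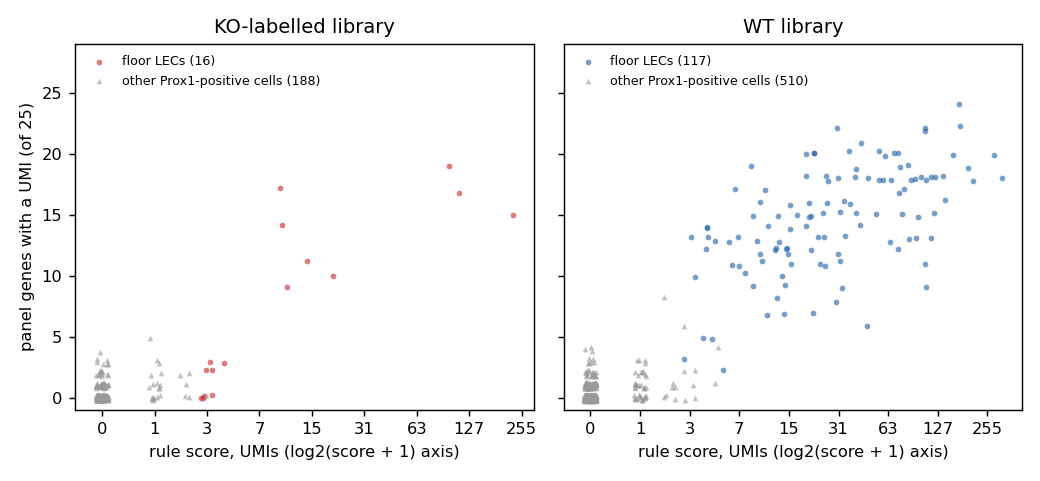
Number of the 25 panel genes with a UMI in each Prox1-positive cell against its summed UMIs of Madcam1, Coch, Ccl20 and Bmp2 (log2(score + 1) axis; coloured points, floor LECs; grey triangles, other LECs; KO-labelled left, WT right). In the KO-labelled library the 8 members with a count of 3 or 4 have at most 3 panel genes and the other 8 have 9 to 19.

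Against the other LECs of the WT library, 1011 of 11108 genes with at least 20 UMIs were at least 2-fold higher in floor LECs (9.1%) and 1462 were at least 2-fold lower (13.2%). The median log2 ratio over all 11108 genes was -0.09. Every gene of these cells was open to the choice of members, so the ratios describe the cells. The 25 genes named as highest and the 15 named as lowest had at least 100 UMIs over floor and other LECs, an interval beyond 2-fold and a UMI in at least 10% of the cells of the higher class, conditions that 289 and 444 genes met.

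The highest genes outside the rule included enzymes and receptors of the cell surface. Mmp9, a gelatinase, had 479 UMIs in WT floor LECs, in 80.3% of the cells, and 2 UMIs in WT other LECs, a ratio of 1046 (288-8663). Mme, the peptidase neprilysin, had 324 UMIs in WT floor LECs and none in WT other LECs, so it was at least 472-fold higher, with the 0 set to 3 counts over the class. Bst1, a surface enzyme that makes cyclic ADP-ribose, was 221-fold higher (74.3-1085), at 152 and 3 UMIs. Slc18a1, a vesicular monoamine transporter, was 114-fold higher, and Ces2e, a carboxylesterase, 40.5-fold. These genes were seen in the KO-labelled library as well: in the 8 members with a rule count of at least 5 and in the KO-labelled other LECs, Mme had 31 and 2 UMIs, Mmp9 15 and 0, Bst1 18 and 8, and Slc18a1 7 and 1.

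Glycam1, a mucin-like carrier of sugars that L-selectin binds and best known from high endothelial venules (HEVs), had 5761 UMIs in WT floor LECs, in 94.0% of them, and 68 UMIs in WT other LECs, a ratio of 370 (291-477). The KO-labelled library had 465 UMIs of Glycam1 in the 8 members with a rule count of at least 5 and 24 UMIs in other LECs. Barcodes of 10 to 200 UMIs, which hold mainly free RNA, carried Glycam1 at 247 CPM in the WT library. WT floor LECs carried it at 5742 CPM and WT other LECs at 15.5 CPM, with a UMI in 4.31% of the WT other LECs. The part of free RNA in these levels was not tested. The HEV enzyme Chst4 had no UMI in floor LECs of either library. Chst2, another sulfotransferase that acts on such sugars, was 14.1-fold higher in WT floor LECs (12-16.6), at 640 and 198 UMIs.

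Genes of signalling at the membrane formed another group. Rgs5 and Rgs4 speed the shut-off of G proteins. Rgs5 had 330 UMIs in WT floor LECs and none in WT other LECs, at least 480-fold higher, and Rgs4 had 704 and 49 UMIs, a ratio of 62.8 (46.9-85.6). Lpar1, a receptor for lysophosphatidic acid, was 90.3-fold higher, and Chrnb4, a nicotinic receptor subunit, was 293-fold higher, at 134 and 2 UMIs. The inward-rectifier potassium channel Kcnj2 was 54.9-fold higher (38.2-81.3). In the 8 KO-labelled members with a rule count of at least 5 and in the KO-labelled other LECs, Rgs5 had 41 and 2 UMIs and Kcnj2 had 11 and 6.

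Transcription factors named as highest were Nkx6-1, a homeobox factor known from the pancreas and neural tube, which was 173-fold higher in WT floor LECs (57.9-852), Irx3, 39.6-fold higher (26.8-60.8), and Spib, an ETS factor known from B cells and intestinal M cells, 36.2-fold higher (24.2-56.2). Nkx6-1 had a UMI in 37.6% of WT floor LECs, Irx3 and Spib in 73.5% each. Nkx6-1 had 1 UMI over the 16 KO-labelled floor LECs together and none in KO-labelled other LECs. Spib, the inhibitory IgG receptor Fcgr2b (225-fold), the amino acid oxidase Il4i1 (119-fold) and the hyaluronan receptor Cd44 (65.0-fold) are also expressed by B cells. WT floor LECs carried them at 223, 103, 353 and 134 CPM, WT other LECs at 6.16, 0.456, 2.97 and 2.05 CPM, and WT B cells at 306, 236, 47.6 and 70.3 CPM. The part of B cell RNA in these levels was not tested. The B cell genes Ms4a1 and Pax5 had no UMI in the 16 KO-labelled floor LECs.

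The remaining genes named as highest were the collagen gene Col15a1 (90.6-fold), the neuronal adhesion gene Astn1 (103-fold), Bmp8a (83.5-fold), the clathrin-uncoating factor Dnajc6 (60.2-fold), Prr16 (53.0-fold), the C1q-like secreted C1ql3 (44.8-fold), Vasn, whose product binds TGF-beta (33.1-fold), and Gm10851 (38.0-fold). Gm10851 is annotated as antisense to Pfkfb3, and whether counting used the strand is not stated, so reads of these genes cannot be told apart. All 25 were at least 2-fold higher in WT floor LECs within male cells (where 8.71% of all genes were) and within female cells (9.29%), with ratios of 23.5 to 1468 and 24.4 to 384. Against ceiling LECs (9.55%) their ratios were 29.8 to 514, and against medullary or paracortical LECs (13.4%) 10.7 to 633. The 25 were chosen in these same WT floor LECs, so their direction in these contrasts is not independent of that choice. In the KO-labelled library 22 of the 25 gave a ratio for the members with a rule count of at least 5. All 22 were at least 2-fold higher than in other LECs, from 5.90 to 436. There 14% of all genes tested were at least 2-fold higher and 16.3% at least 2-fold lower. That threshold was chosen after the counts of these 25 genes were seen, so their direction in those members was largely fixed by the choice. Over all 16 KO-labelled members 22 of the 25 gave a ratio and all of these were at least 2-fold higher than in other LECs, from 2.36 to 174, beside 6.61% of all genes. In the 8 members with a rule count of 3 or 4 only 7 of the 25 gave a ratio, and 5 of these were at least 2-fold higher, beside 7.93% of all genes. The shares over all genes here cover genes with at least 20 UMIs, which some of the 25 did not reach in the female or KO-labelled contrasts. Chrnb4, for example, had 5 UMIs in KO-labelled floor LECs and 0 in KO-labelled other LECs. The counts and the shares are therefore not directly comparable there.

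The genes named as lowest included receptors and genes of the matrix and cytoskeleton. Cd36, a receptor for fatty acids and thrombospondin, had 44 UMIs in WT floor LECs and 10076 in WT other LECs, a ratio of 0.0191 (0.0139-0.0256), and a UMI in 10.3% of WT floor and 84.1% of WT other LECs. Ackr3, a scavenging receptor for Cxcl12 and adrenomedullin, had 15 and 2541 UMIs, and Fbln5, a gene of elastic fibres, 9 and 1635.

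The growth factor gene Tgfb2 had 4 UMIs in WT floor and 989 in WT other LECs, and Fst, the activin antagonist follistatin, 4 and 1121. Flnc and Pdlim3, genes of the actin cytoskeleton, had 1 UMI each in WT floor LECs, against 254 and 273 in WT other LECs. The others were Pkhd1l1, Car8, AW551984, Ctnnal1, Chp2, Zfp462 and Emp1, with ratios of 0.0143 to 0.0258. All 15 were at least 2-fold lower within male cells (14% of all genes), within female cells (16.4%) and against ceiling LECs (12.2%). Against medullary or paracortical LECs 14 gave a ratio, from 0.0206 to 0.240, and all were at least 2-fold lower (11.7%). Some of these ratios rest on fewer than the 20 UMIs that the share required, and some intervals reach above 0.5. Medullary or paracortical LECs also carried several of these genes at low counts. Pdlim3 had 1 UMI in these 32 cells and 222 in the 349 ceiling LECs, Fst 8 and 881, Ctnnal1 63 and 719 and Cd36 191 and 8947. The 15 were also chosen in these WT floor LECs, so their direction here is not independent of that choice.

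Over all 16 KO-labelled members and the KO-labelled other LECs, all 15 gave a ratio, of which 13 were below 1 and 7 at least 2-fold lower, beside 13.8% of all genes. The ratios over 1 were those of Car8, 1.77 at 5 and 24 UMIs, and Pdlim3, 1.26 at 4 and 27 UMIs. Cd36 was 0.514, at 84 UMIs. In the 8 members with a rule count of at least 5, Cd36 had 8 UMIs (0.123, 0.0528-0.242) and the other 14 genes had none, so the members with a rule count of 3 or 4 held most of the Cd36 transcripts. With each 0 set to 3 counts, 8 of these 14 were at least 2-fold lower, and the counts of the rest set no bound of that size.

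**Figure D4:**
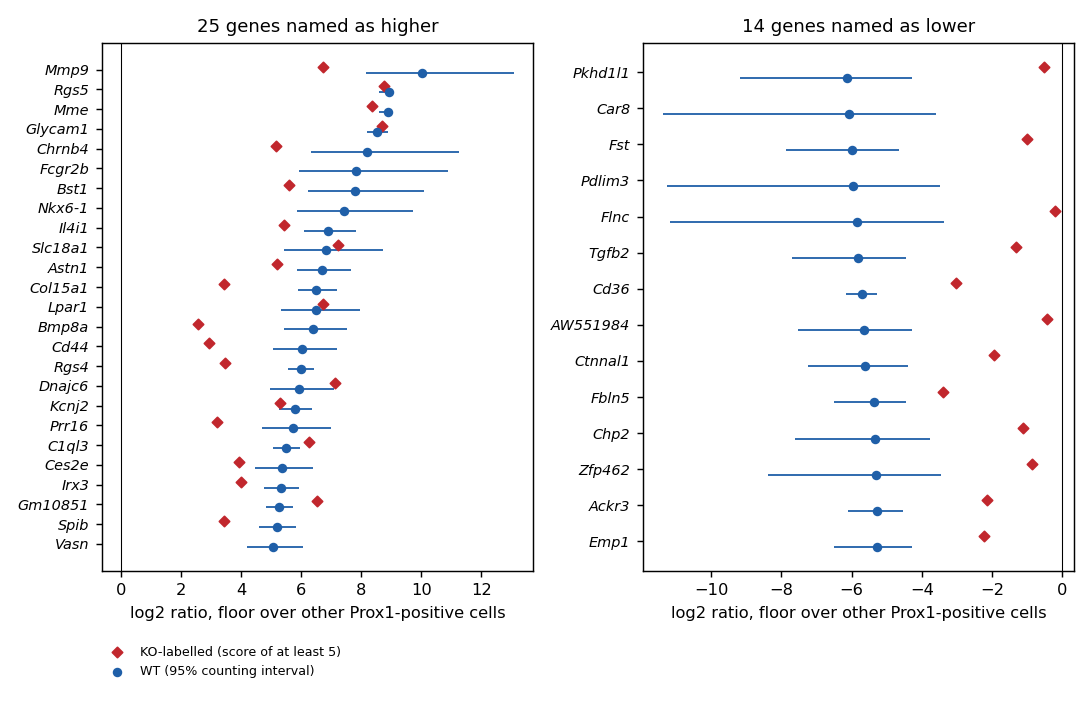
Log2 ratio of floor over other LECs for the 25 genes named as highest (left) and 14 of the 15 named as lowest (right); blue points, WT with 95% counting intervals; red diamonds, KO-labelled members with a rule count of at least 5, with counts of 0 at their bound and no point where a bound would turn the direction or counts were too low. The 22 diamonds on the left run from 5.90-fold to 436-fold; on the right the Cd36 diamond (0.123) is a measured ratio and the others are bounds, drawn only where they fall below 0.

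Floor LECs kept LEC genes at uneven levels. Prox1, used by the rule, had 1158 CPM in WT floor LECs and 1464 CPM in WT other LECs. The gene lists that follow are counted without the rule's genes, and their counts stand beside the 9.1% and 13.2% of all genes that were at least 2-fold higher and lower. Of 18 other tested genes of LEC identity 1 was at least 2-fold higher in WT floor LECs, 9 were at least 2-fold lower, and the median log2 ratio was -1.10. The exception was the transcription factor Maf, at 2945 and 1160 CPM (2.54-fold). Flt4, the receptor of VEGF-C, was 0.578 (0.512-0.651), podoplanin (Pdpn) 0.543, Mmrn1 0.148 and Thy1 0.10. Lyve1, a hyaluronan receptor, separated the walls of the sinus: it had a UMI in 90.6% of WT floor LECs, 19.2% of WT ceiling LECs and 90.6% of WT medullary or paracortical LECs. Its level was 1915 CPM in WT floor LECs, 465 CPM in WT ceiling LECs and 7652 CPM in WT medullary or paracortical LECs.

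Of 11 ceiling markers other than Ackr4, 9 were at least 2-fold lower in WT floor LECs (median log2 -3.42). Cav1, the coat protein of caveolae, was 0.0548 (0.0412-0.0714). The 2 that were higher were Jam3, a junctional adhesion molecule, at 2.61-fold (2.38-2.86), and the matrix gene Npnt, at 2.06-fold with 24 and 51 UMIs. Of 13 medullary and paracortical markers 4 were at least 2-fold higher and 6 at least 2-fold lower, with Reln at 0.107, Stab2 at 0.279 and the checkpoint ligand Cd274 at 9.85 (7.11-13.8).

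Adhesion and leukocyte traffic came next. Of 16 leukocyte adhesion genes other than Madcam1, 7 were at least 2-fold higher in WT floor LECs and 4 at least 2-fold lower (median log2 0.26). Vcam1 was 2.95-fold higher (2.69-3.23) and Icam1 2.61-fold (2.30-2.96), and Selp, an endothelial selectin, was 0.162 (0.0802-0.295). Of 7 tested HEV markers 5 were at least 2-fold higher and 2 lower (median 1.57), with Glycam1 and Gcnt1 (0.0843) at the ends. Of 11 integrins 2 were at least 2-fold higher: Itga2b, the alpha subunit best known from platelets, had 378 UMIs in WT floor and 74 in WT other LECs (22.3-fold, 17.4-29), and Itga2, a collagen-binding subunit, was 6.65-fold higher. The platelet genes Ppbp and Gp9 had no UMI in floor LECs of either library, while Pf4 had 28 UMIs in 15.4% of WT floor LECs and 2 UMIs in WT other LECs.

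Of 12 chemokines other than Ccl20, 8 were at least 2-fold higher in WT floor LECs and 2 at least 2-fold lower (median log2 1.70). Cxcl9, a ligand of CXCR3, was 20.3-fold higher (14.7-28.4) with a UMI in 21.4% of WT floor LECs, and Cxcl1, which attracts neutrophils, 19.2-fold (16-23.1) with a UMI in 60.7%. Cxcl9 had no UMI in KO-labelled floor LECs. Ccl7 was 0.091 (0.0185-0.271). Of the 3 atypical chemokine receptors outside the rule, Ackr3 and Ackr2 were at least 2-fold lower and Ackr1, at 21 and 30 UMIs, was 3.06-fold higher.

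Factors that feed macrophages and lymphoid cells were mixed. Csf1, the growth factor of macrophages, had a UMI in 99.1% of WT floor LECs and 58.2% of WT other LECs and was 5.65-fold higher (5.28-6.04). Csf1 was 9.62-fold higher in the KO-labelled members with a rule count of at least 5 (7.89-11.7), at 152 UMIs. Il33, an alarmin, was 17.5-fold higher in WT floor LECs (14.2-21.8) and 15.9-fold higher in those KO-labelled members (8.98-27.9). Il7 and Tslp, which act on lymphocytes and dendritic cells, were lower in WT floor LECs, at 0.401 and 0.312. Of 10 tested genes of this list 5 were at least 2-fold higher and 2 at least 2-fold lower (median log2 0.55), and the median was -0.031 in male cells.

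Of 26 NF-kappaB and inflammatory genes other than Ccl20, which share Cxcl1 and Csf1 with lists above, 12 were at least 2-fold higher in WT floor LECs and none was at least 2-fold lower, with a median log2 of 0.97. Nfkbia, the inhibitor that NF-kappaB itself induces, was 2.10-fold higher (1.96-2.25). In KO-labelled members with a rule count of at least 5, 9 of 23 were at least 2-fold higher and 2 lower (median 0.70), beside 14% and 16.3% of all genes. Of 13 genes of lymphotoxin and RANK receptors with alternative NF-kappaB, 4 were at least 2-fold higher and 2 lower in WT floor LECs. Ltb, a lymphotoxin chain, was 6.08-fold higher, Birc3 4.06-fold and Nfkb2, the precursor of the alternative pathway's p52 subunit, 2.72-fold (2.20-3.36). The receptors went the other way: Tnfrsf11a, which encodes RANK, was 0.494 (0.412-0.589), Ltbr 0.533 (0.368-0.752) and Cd40 0.0347. Tnfsf11, which encodes RANKL, had no UMI in any Prox1-positive cell.

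Of 13 tested BMP ligands, antagonists and receptors other than Bmp2, 1 was at least 2-fold higher in WT floor LECs, Bmp8a, and 8 were at least 2-fold lower (median log2 -1.32). The ligand Bmp4 was 0.0578 (0.0287-0.104) and Bmp6 0.062. Targets of BMP signalling were split, with Id2 8.81-fold higher (7.07-11) and Id3 at 0.146 (0.0886-0.228). Of 14 genes of TGF-beta and CCN proteins 3 were higher and 7 lower. The matrix gene Ltbp2 was 8.36-fold higher, the coreceptor Tgfbr3 3.03-fold, and Ccn1, a matrix-associated signal protein, 0.377.

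The matrix genes divided as well: of 30 tested other than Coch, 7 were at least 2-fold higher in WT floor LECs, led by Col15a1 and Postn, and 15 at least 2-fold lower (median log2 -0.99). Col18a1, a basement membrane collagen, was 0.0435 (0.0231-0.0747) and Fn1, fibronectin, 0.29. Of 15 junction genes 1 was at least 2-fold higher, the desmosomal cadherin Dsg2, with 1354 UMIs in WT floor and 287 in WT other LECs (20.6-fold, 18.1-23.5), and with 65 UMIs in the KO-labelled members with a rule count of at least 5 (35.4-fold). Esam was 0.0509 and Jup, plakoglobin, 0.207. Of 22 proteases and inhibitors 4 were higher and 9 lower, with Mmp9 the highest.

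Most tested genes of MHC class I and of complement had a ratio over 1. All 16 genes of MHC class I and its peptide supply had a ratio over 1 in WT floor LECs and 5 were at least 2-fold higher (median log2 0.75), among them the immunoproteasome subunit genes Psmb10 (2.29-fold), Psmb9 (2.20-fold) and Psmb8 (2.14-fold). Cd74, the invariant chain of MHC class II, had a UMI in 88.9% of WT floor LECs and 16.1% of WT other LECs (7.70-fold, 6.64-8.95), and the protease Ctss, which trims it, was 8.48-fold higher. The class II chains were few: H2-Ab1 had 69 UMIs in WT floor and 144 in WT other LECs (2.09-fold), and H2-Aa was 0.801 (0.484-1.27). The median log2 of the MHC class II list turned sign with a Prox1 minimum of 1 UMI (-1.22) and in female cells (-0.35). Cd74 is also in the B cell list below, and the part of B cell or free RNA in these class II levels was not tested. The H2 genes of class I are near-identical in places, so counting could split their reads. Of 11 complement genes 6 were at least 2-fold higher and 1 lower (median 1.76). C3, the central component, was 14.2-fold higher (12.1-16.8) with a UMI in 95.7% of WT floor LECs, Cfb 5.63-fold and the decay-accelerating factor Cd55 4.58-fold (4.37-4.80), while Cd59a was 0.295. In the KO-labelled members with a rule count of at least 5 these were 4.92, 4.36, 3.82 and 0.184, against other LECs with a smaller part of ceiling cells than in the WT library.

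Smaller lists held single genes with large ratios. The scavenger receptor Msr1 was 28.5-fold higher in WT floor LECs (24.5-33.3) and the prostaglandin E2 receptor Ptger4 23.4-fold (18.1-30.8). The metallothioneins Mt1 and Mt2 were 17-fold and 15-fold higher. Vegfa was 6.06-fold higher (4.87-7.55), Igf1 3.88-fold and the guidance receptor Robo1 9.08-fold (7.13-11.6). Enpp2, the enzyme that makes lysophosphatidic acid, was 2.60-fold higher, and Spns2, the exporter of sphingosine-1-phosphate, 0.237, while its receptor S1pr1 was 0.997 (0.930-1.07). Pdgfb was 0.026 and the netrin gene Ntn1 0.0448. Of 33 transcription factors 6 were at least 2-fold higher and 11 lower, with Nfatc1 at 0.0866 and Sox18 at 0.196.

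Cell cycle genes were lower, with 15 of 20 at least 2-fold lower and none at least 2-fold higher in WT floor LECs (median log2 -1.48). The median was -0.60 with cycling cells left out, -2.00 with a rule count without Bmp2 and -2.06 with a rule count of at least 10. Cells with at least 3 UMIs of Mki67, Top2a and Cdk1 were 0 of 16 KO-labelled and 5 of 117 WT floor LECs (4.27%), against 6.38% and 7.45% of the other LECs. Taken as 3 counts, 0 of 16 allows a share of up to 18.8%. Of 22 immediate early genes, which respond to tissue digestion among other stimuli, none was at least 2-fold higher and 6 were at least 2-fold lower in WT floor LECs (median -0.29), and Fos was 1.02 (0.985-1.06). Of 38 interferon-stimulated genes 4 were at least 2-fold higher and 2 lower (median 0.21), near or below the shares over all genes.

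**Figure D5:**
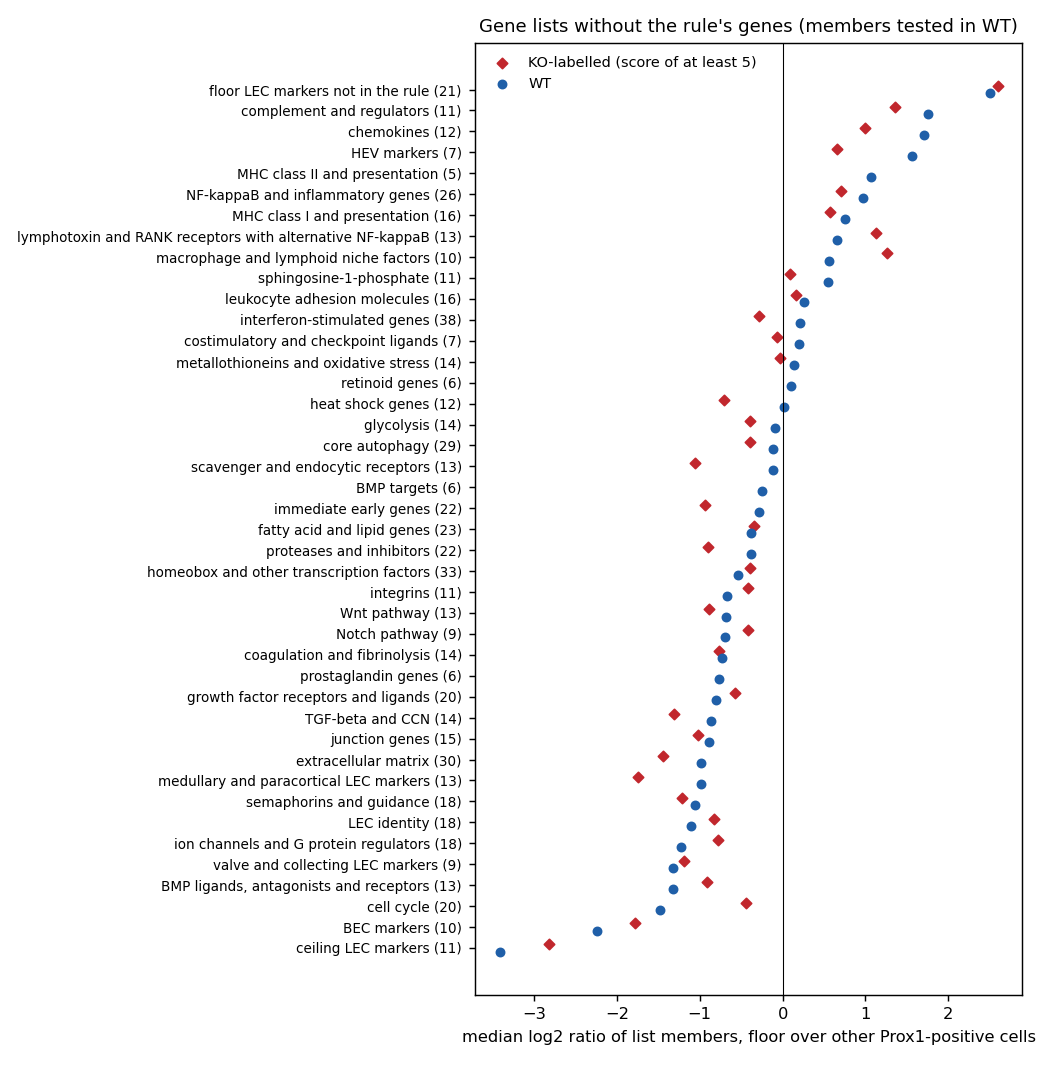
Median log2 ratio of floor over other LECs for each gene list (blue, WT, number of genes tested in brackets; red diamonds, KO-labelled members with a rule count of at least 5; lists with at least 5 tested genes in WT, without the rule's genes). Ceiling markers had the lowest median in WT (-3.42) and floor markers outside the rule the highest (2.50).

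Markers of other cells were looked for in the floor LECs. Of 14 macrophage and dendritic markers 7 had a UMI in WT floor LECs: Ptprc, Lyz2, C1qb, Cd68, Fcer1g, Cd14 and Flt3. Csf1r, C1qa, C1qc, Siglec1, Adgre1, Tyrobp and Itgax were at 0. The list had 88 UMIs in WT floor LECs (87.7 CPM, against 29.2 CPM in WT other LECs). A UMI of the list was found in 27.4% of WT floor and 10% of WT other LECs. Of the 12 fibroblast and reticular markers Pdgfrb, Col1a1, Col1a2, Lum, Dpt and Acta2 were at 0 in WT floor LECs. Pdgfra, Col3a1, Dcn, Ccl19, Cxcl13 and Rgs5 had UMIs there, and Rgs5 gave 330 of the list's 373 UMIs. This list summed to 372 CPM in WT floor and 68.9 CPM in WT other LECs. The HEV list, with 8 of 10 markers seen in WT floor LECs, summed to 7239 CPM there and 633 CPM in WT other LECs. Glycam1 gave 5761 of its 7263 UMIs in WT floor LECs. Of 14 blood endothelial markers Esm1, Apln and Vwf were at 0, and the list's sum was 1279 CPM in WT floor and 1727 CPM in WT other LECs. The B cell list summed to 555 CPM in WT floor and 120 CPM in WT other LECs, with 492 of 557 UMIs from Cd74. Scrublet called no doublet among the Prox1-positive cells and 31 and 28 among all KO-labelled and WT cells.

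WT floor LECs were also split by their counts of Coch, Madcam1 or Ccl20. These counts helped to choose the members, and a cell without 1 of these genes had to meet the rule through the others. The splits therefore describe the cells, and the 25 genes set beside them were chosen in the same cells. The 54 with at least 3 UMIs of Coch were set beside the 43 with none, with similar median depths of 9139.5 and 8624 UMIs. Of 6533 genes 4.52% were at least 2-fold higher and 4.18% at least 2-fold lower, with a median log2 ratio of -0.020. Coch-rich cells had more Glycam1 (8433 and 3291 CPM), Mmp9 (653 and 259 CPM), Madcam1 (502 and 209 CPM), Lpar1 (206 and 52.3 CPM) and Cxcl9 (206 and 23.2 CPM). They had less Lyve1 (832 and 3099 CPM), Stab2 (143 and 482 CPM), Klf4 (208 and 488 CPM) and Cldn5 (326 and 764 CPM). Over the 25 genes named as highest, the ratio was over 1 for 18 and at least 2 for 7.

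The 55 cells with at least 3 UMIs of Madcam1 and the 32 with none differed for several of the same genes: Glycam1 was at 7609 and 2193 CPM, Coch at 2849 and 476 CPM, Lyve1 at 1490 and 3094 CPM and Stab2 at 189 and 520 CPM. Of 6339 genes 5.81% were at least 2-fold higher and 4.4% at least 2-fold lower, with a median log2 ratio of -0.010. Of the 25 genes named as highest, 22 had a ratio over 1 and 8 were at least 2-fold higher. The 28 cells with at least 3 UMIs of Ccl20 and the 79 with none differed for Bst1 (315 and 75.5 CPM), Lpar1 (241 and 78.6 CPM), Kcnj2 (727 and 257 CPM) and Nfkbia (1859 and 1072 CPM). There 3.64% of 6890 genes were at least 2-fold higher and 7.01% at least 2-fold lower, with a median log2 ratio of -0.047. Of the 25, 20 had a ratio over 1 and 6 were at least 2-fold higher. The genes in these sentences were chosen after their values were seen, and the splits overlap in their cells: 31 WT floor LECs had Coch and Ccl20, 43 had Coch alone of the pair and 7 had Ccl20 alone. Ccl20-rich cells were 20 male and 4 female cells, and cells without Ccl20 38 male and 25 female.

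Within the WT floor LECs, 64 male cells were set beside 32 female cells. Of 6635 genes 6.28% were at least 2-fold higher and 3.77% at least 2-fold lower in male cells, with a median log2 ratio of 0.014. Ccl20 was at 1010 CPM in male and 192 CPM in female floor LECs (5.27-fold, 3.95-7.18), Mt2 at 819 and 130 CPM, Cxcl10 at 656 and 180 CPM and Atf3 at 353 and 88.2 CPM. Stab2 was at 220 and 502 CPM. A few cells carried most Ccl20 UMIs, and the cells of each sex came from 1 pool, so a difference between single mice cannot be told apart from one between the sexes. Of the 25 genes named as highest, 16 were higher and 9 lower in male cells, 2 of them at least 2-fold higher.

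The KO-labelled floor LECs were also set beside the WT ones, over all 16 members. Of 7685 genes 8.6% were at least 2-fold higher and 11.5% at least 2-fold lower. All 25 genes named as highest in WT were lower (0.0509 to 0.797), and of the 15 named as lowest in WT the 13 that gave a ratio were higher (5.65 to 42.4). These genes were chosen in the WT cells, so their direction here is not independent of that choice. Some of the 13 ratios rest on fewer than the 20 UMIs that the shares over all genes required, as for Flnc at 7 and 1 UMIs. With the 8 KO-labelled members with a rule count of at least 5, 7 of the 25 were higher and 18 lower than in WT floor LECs (0.127 to 1.89, median 0.677), where 10.6% of all genes were at least 2-fold higher and 11.8% at least 2-fold lower. With 8 cells from 1 pool, levels that rest on single cells are included: 1 cell gave most Coch UMIs.

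Atg5 itself (chr10:44268358-44364291) had 9 UMIs in all 16 KO-labelled floor LECs (54.3 CPM), 2 of them in the 8 members with a rule count of at least 5 (30.2 CPM), and 56 in KO-labelled other LECs (39.8 CPM). In the WT library it had 19 UMIs in floor LECs (18.9 CPM) and 194 in other LECs (44.3 CPM), a ratio of 0.428 (0.252-0.686). The position of the deletion relative to the counted 3' end is not given in the sources used here. Atg5 had the lowest ratio of the core autophagy genes and was the 1 of 29 that was at least 2-fold lower in WT floor LECs, none was at least 2-fold higher, and their median log2 was -0.11. Tax1bp1, a cargo receptor of autophagy, was 1.52-fold higher (1.39-1.66).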

How the data were processed

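Per the file headers, the authors processed reads with the BD Rhapsody WTA Analysis Pipeline 1.11 on mm10 and deposited UMI counts as whole numbers, unnormalized and with no barcode filter. Counts after the pipeline's error correction were used. Cells had at least 1200 UMIs, at least 200 genes and at most 25% mitochondrial UMIs. Classes were set by UMI thresholds (at least 3 UMIs of Ackr4, or of Mrc1, Marco and Ptx3 together, whichever was greater). For each class a gene's UMIs were added up and scaled to CPM by the non-mitochondrial UMIs of that class. Ratios carry exact conditional binomial intervals and shares exact Clopper-Pearson intervals (95%). A 0 was set to 3 counts, and no ratio was given with at most 3 counts in each class or where this would turn the direction. For counts over all genes and over lists, genes needed 20 UMIs over both classes. Ratios of the 25 and 15 named genes in contrasts other than the main one did not need this number. Male cells had a Y-linked UMI and no Xist, female cells the reverse, and B cells at least 2 UMIs of Cd79a. The aligner and its strand setting are not given in the sources used here. Intervals treat UMIs as independent and cover neither variation between cells nor between mice. For gene positions GENCODE vM21 (GRCm38) was used. The contrast was tested on simulated data. With Scrublet (scanpy 1.11.5), doublets were called but kept. The members and the 50 gene lists (756 of 765 genes found) were chosen with earlier results of these data known. Named genes were the 25 highest and 15 lowest ratios under the stated conditions, the list members with the most extreme ratios or the most UMIs, the rule's genes and Atg5. Other genes were chosen after their values were seen. Alternatives changed the thresholds, filters, comparison cells, sex of cells, scaling and low-count minimum. The surface gates, not the counts, set the ratio of endothelial to immune cells. A named gene and a marker are not reported here.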

Additional observations from a re-analysis of the deposited data

How the results depend on the processing

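The KO-labelled floor share of 7.84% was 3.92% with a rule count of at least 5, 15.4% with at most 10% mitochondrial UMIs, 4.46% when the rule was applied after thinning to 3000 UMIs and 4.90% with a score without Bmp2. It was 3.43% with a rule count of at least 10, a setting chosen after seeing the data. The WT share of 18.7% was 15.1% after thinning, 12.8% with a score without Bmp2 and 15.3% with a rule count of at least 10. The KO-labelled share was below the WT share in every setting in which both were computed. The genes at least 2-fold higher in WT floor LECs, 1011, numbered 467 with a minimum of 100 UMIs and 1607 with a minimum of 4. The genes at least 2-fold lower, 1462, numbered 962 against medullary or paracortical LECs and 814 with a minimum of 100 UMIs; fewer genes are tested under the stricter minimum. The other causes were not tested. Of 836 list medians, 5 that had a size of at least 0.5 turned sign: niche factors in male cells (-0.031), MHC class II with a Prox1 minimum of 1 UMI (-1.22) and in female cells (-0.35), and against medullary or paracortical LECs the Wnt pathway (0.089) and transcription factors (0.23). The immediate early genes had a median of 1.64 against medullary or paracortical LECs. No named gene changed direction in 819 values, of which 145 lay outside the counting interval of the main value. These genes, apart from Postn, were chosen for extreme ratios in the same WT cells. Postn was chosen with earlier results of these data known. The direction of these genes is not independent of those choices. No paired analysis was possible because each genotype has 1 library. The 16 KO-labelled members hold few UMIs, so genes with low counts there give wide intervals or no ratio.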
